A study of Mus musculus with 6 samples.

Results

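Kruppel-like factors are zinc finger transcription factors named after the Drosophila segmentation gene Kruppel, and 10 of their mouse genes were examined here, namely Klf2, Klf3, Klf4, Klf5, Klf6, Klf7, Klf9, Klf10, Klf13 and Klf15. They were found by gene symbol in the platform annotation, which assigned them 34 of the 45101 probe sets of the array, between 1 and 7 per gene. The cells were C3H10T1/2, a mouse mesenchymal line that can be turned into fat, cartilage, bone or muscle cells. There were 3 RNA samples of cells given 50 ng/ml BMP4, a secreted bone morphogenetic protein, while they proliferated, and 3 RNA samples of cells handled alike without BMP4. All 6 samples were total RNA taken after the cells had passed confluence, with 1 array each, so a single time point of a single cell line was observed. The series asks which genes respond to BMP4 when these cells commit to the adipocyte lineage.

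The proteins of this family share a C-terminal DNA-binding domain of C2H2 zinc fingers that recognises CACCC and GC boxes, and they differ in the N-terminal part, which recruits coactivators or corepressors. In preadipocyte cultures some members promote fat cell formation and others restrain it. Klf4 acts early on the Cebpb gene, Klf5 and Klf9 act on the Pparg gene together with C/EBP proteins, Klf6 represses the preadipocyte gene Dlk1, and Klf15 acts late, while Klf2, Klf3 and Klf7 restrain the programme. Several members also respond quickly to serum, growth factors, glucocorticoids or TGF-beta.

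With BMP4, Klf5 and Klf13 rose and Klf4 and Klf6 fell, each by less than 2-fold, and Klf9 fell on 2 of its 7 probe sets. Klf2, Klf3, Klf7 and Klf10 did not pass the test on any probe set, and Klf15 was not above background on any array. Signals are linear brightness values per probe set, and changes are BMP4 minus control on the log2(signal + 16) scale, tested with limma across all probe sets kept and adjusted by Benjamini-Hochberg. A probe set passed at an adjusted p under 0.05. Of the 34 probe sets, 30 were bright enough to be tested, and they covered 9 of the 10 genes. Among the 30, 2 were higher (6.67%) and 6 were lower (20%), against 4.2% higher and 4.91% lower among all 27022 probe sets tested. Probe sets of the same gene share a target, so the 30 are not independent measurements. Taking each gene by its brightest tested probe set, 2 of 9 genes were higher (22.2%) and 2 were lower (22.2%), against 5.03% and 5.66% of 12966 genes. The members were chosen with earlier results of these data known, so the difference from these shares was not tested. The median log2 change of the 9 genes was 0.02, and that of all genes was 0.03. The arrays of the groups did not overlap at 13 of the 30 probe sets (43.3%), against 28.2% of all probe sets tested. None of the 8 probe sets that passed reached a 2-fold change, whereas 321 of the 2464 that passed on the whole array did. In a bulk sample, fewer cells that express a gene and less of its RNA per cell cannot be told apart.

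**Figure D1:**
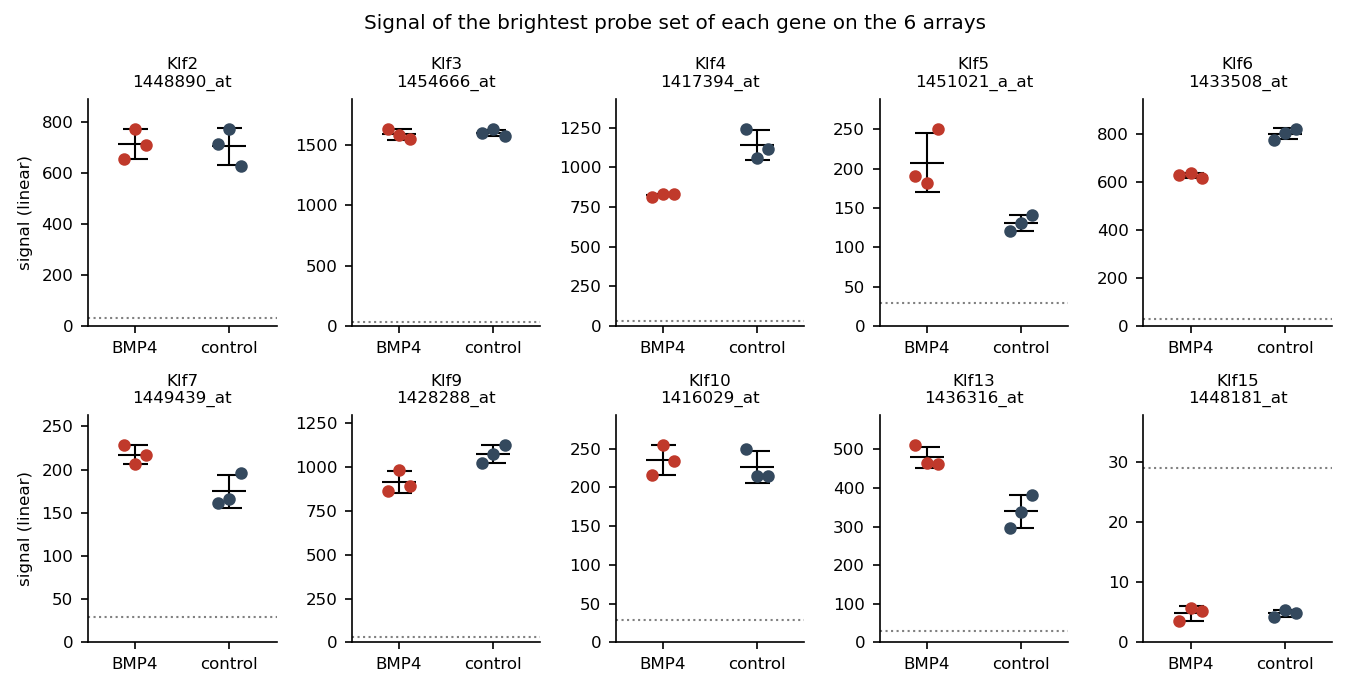
Linear signal (vertical axis, starting at 0) of the brightest probe set of each of the 10 genes on the 3 BMP4 arrays (left in each panel) and the 3 control arrays (right). Points are arrays, the bars give the mean and SD (n = 3), and the dotted line is the highest signal of a bacterial control probe set, 29.1. Klf4, Klf5, Klf6, Klf7, Klf9 and Klf13 show no overlap of the groups, and Klf15 lies under the dotted line on every array.

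Promoter sequence is shown for the members that passed the test on at least 1 probe set and have an entry among the RefSeq promoters of mouse build GRCm38.p6, where 8 of the 10 genes matched by symbol, all but Klf5 and Klf10. Each line gives the 250 bases before the transcription start, written 5′ to 3′ along the gene, with its position. Capitals mark the CACCC box and the GC box (GGGCGG), searched as these letters on both strands.
Klf4 (chr4:55532476-55532725, minus strand): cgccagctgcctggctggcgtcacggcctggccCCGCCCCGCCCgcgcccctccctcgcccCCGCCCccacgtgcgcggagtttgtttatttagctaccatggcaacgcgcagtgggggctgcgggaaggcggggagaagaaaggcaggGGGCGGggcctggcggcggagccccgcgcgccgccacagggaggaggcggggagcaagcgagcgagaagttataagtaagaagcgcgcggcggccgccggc
Klf6 (chr13:5861239-5861488, plus strand): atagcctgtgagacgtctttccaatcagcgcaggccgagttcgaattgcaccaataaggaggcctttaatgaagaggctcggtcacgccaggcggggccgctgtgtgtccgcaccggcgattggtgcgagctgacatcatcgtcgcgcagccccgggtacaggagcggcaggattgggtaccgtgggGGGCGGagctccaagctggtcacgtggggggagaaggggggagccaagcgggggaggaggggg
Klf9 (chr19:23140976-23141225, plus strand): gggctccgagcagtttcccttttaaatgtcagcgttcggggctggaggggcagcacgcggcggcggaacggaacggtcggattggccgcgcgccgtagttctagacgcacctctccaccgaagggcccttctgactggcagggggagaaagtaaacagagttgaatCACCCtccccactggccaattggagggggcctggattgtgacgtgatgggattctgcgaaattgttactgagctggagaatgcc
Klf13 (chr7:63938916-63939165, minus strand): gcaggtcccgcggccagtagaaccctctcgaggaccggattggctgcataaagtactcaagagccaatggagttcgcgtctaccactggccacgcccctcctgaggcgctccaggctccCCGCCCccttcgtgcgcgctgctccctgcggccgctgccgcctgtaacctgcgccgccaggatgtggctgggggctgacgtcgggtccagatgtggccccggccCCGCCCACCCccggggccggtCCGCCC
These 4 promoters differed in the boxes they held. Klf4, which fell, had 4 GC boxes and 0 CACCC boxes, and Klf6, which also fell, had 1 GC box and 0 CACCC boxes. Klf9 had 1 CACCC box and 0 GC boxes. Klf13, which rose, had 3 GC boxes and 1 CACCC box, which overlapped a GC box. Over the 8 members, 6 held a CACCC box and 7 held a GC box, against 52.0% and 32.7% of the 32851 promoters of the same length. The E-box CACGTG was present in 3 of 8, namely Klf4, Klf6 and Klf15, against 6.02% of all promoters, and the TATA box TATAAA in 0 of 8, against 12.4%. GC content was 59.2% to 78.4% in the 8 members, and its median over all promoters was 52.4%. A match describes letters in this window and does not show that a factor binds there.

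Klf4 fell on both of its probe sets. Klf4 is best known as a reprogramming factor and as a brake on cell division in epithelia, and in 3T3-L1 cells it activates Cebpb early in fat cell formation. On probe set 1417394_at its signal was 814.9, 829.3 and 829.4 on the BMP4 arrays, against 1244, 1060.7 and 1112 on the control arrays. The BMP4 arrays lay close together, with an SD of 8.34 around a mean of 825, and every one was below every control array, whose mean was 1139 ± 94.6 (SD, n = 3). The log2 change was -0.46 ± 0.07 (SE), a fall to 0.729 of the control level (limma adjusted p = 0.00235). On 1417395_at the signals were 281.6, 318 and 331.6 with BMP4, against 530.5, 417.5 and 407.7 without it. Here too the groups were apart, with a log2 change of -0.51 ± 0.11 (adjusted p = 0.0113). With no intensity trend in the variance model the second probe set missed the threshold (adjusted p = 0.0735), while the first passed under all 17 alternatives, with adjusted p from 0.00133 to 0.0391.

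Klf5 rose on the brightest of its 3 probe sets. Klf5 is needed for proliferating epithelial and smooth muscle cells, and in preadipocytes it is induced by C/EBP proteins and activates Pparg. On 1451021_a_at its signal was 190.3, 182 and 251.2 on the BMP4 arrays, against 120.5, 130.9 and 141.2 on the control arrays. The BMP4 arrays were all above the control arrays, and BMP4 replicate 3 was the highest of them. The log2 change was 0.60 ± 0.13 (SE, limma adjusted p = 0.0128), a 1.51-fold rise. The call was lost without control replicate 1 (adjusted p = 0.0593) and without the intensity trend (0.0561). The dimmer 1451739_at had 40.1, 52.4 and 56.7 with BMP4, against 34.7, 40 and 48.6 without it. Its groups overlapped, and its log2 change of 0.20 had a 95% interval from -0.19 to 0.60 (adjusted p = 0.556). The remaining probe set, 1430255_at, was at 4.3 to 21.2 on all arrays, under the bacterial control level, and was not tested.

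Klf6 had a negative change on all 5 of its probe sets, and fell on 2 of them. Klf6 is an early gene of wound and stellate cell responses and a repressor of Dlk1 in fat cell precursors. On the brightest, 1433508_at, the signals were 628.6, 637.2 and 616.6 with BMP4, against 778.1, 805.1 and 824.5 in control cells. The spread within each group was small, with an SD of 10.3 with BMP4 and 23.3 without it, and the groups were well apart. The log2 change was -0.35 ± 0.06 (SE, limma adjusted p = 0.00502), and the call was lost without the intensity trend (adjusted p = 0.0574). A larger fall came from the dim 1459718_x_at, at 53.6, 60.6 and 56.3 on the BMP4 arrays, against 113.2, 108 and 90.1 on the control arrays. Its log2 change was -0.71 ± 0.14 (adjusted p = 0.00794), and it passed under all 17 alternatives. The suffix _x_at marks probe sets that may also pick up transcripts of other genes, so this value is uncertain as a measure of Klf6.

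The other Klf6 probe sets gave smaller changes. On 1447448_s_at the log2 change was -0.22 (95% interval -0.40 to -0.04, limma adjusted p = 0.131), and on 1418280_at it was -0.20 (-0.38 to -0.01, adjusted p = 0.186). The groups did not overlap on either probe set. On 1427742_a_at the signals were 497, 495.2 and 349.7 with BMP4, against 496.4, 511.9 and 501.7 without it. There the lower mean of the BMP4 group came from replicate 3, while replicates 1 and 2 were at the control level (log2 change -0.18, adjusted p = 0.4). Whether the 5 probe sets differed from each other in their change was not tested.

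Klf9 is induced by glucocorticoids and thyroid hormone and cooperates with Cebpa on the Pparg gene in later fat cell formation. It fell on 2 of its 7 probe sets, and 6 of the 7 had a negative change. On the brightest, 1428288_at, the signals were 863.4, 984 and 891.3 with BMP4, against 1024, 1071.4 and 1123.8 in controls. The groups were just apart, and the log2 change of -0.23 ± 0.07 (SE) was not past the test (limma adjusted p = 0.0769). It passed with cyclic loess (adjusted p = 0.0403) and with each array centred on its median (0.0499).

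On 1428289_at Klf9 had 575.5, 581 and 557.8 with BMP4, against 713.8, 676.3 and 680.4 without it, and every BMP4 array was lower. The log2 change was -0.27 ± 0.06 (SE, limma adjusted p = 0.0241). This call was lost without BMP4 replicate 2 or 3, without any 1 of the 3 control replicates, without the intensity trend and with a replicate block, at adjusted p from 0.0537 to 0.118. The clearer fall was on 1456341_a_at, with 280.7, 311.9 and 267.5 on the BMP4 arrays, against 477.6, 393 and 365.8 on the control arrays. Again no BMP4 array reached the control range, and the log2 change was -0.49 ± 0.10 (adjusted p = 0.0119), lost without the intensity trend (0.0731). The 4 dimmer probe sets gave log2 changes from -0.36 to 0.09, none past the test. Among them 1452723_at was not above the bacterial control level on any control array.

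Klf13 rose on the brightest of its 3 probe sets. Klf13 is a close relative of Klf9, first known as an activator of the chemokine gene CCL5 in human T cells. On 1436316_at its signals were 511.4, 465.2 and 461.5 with BMP4, against 296.5, 338.8 and 382.3 without it. All BMP4 arrays were above all control arrays. The log2 change was 0.49 ± 0.09 (SE, limma adjusted p = 0.00788), a 1.40-fold rise in signal + 16. Dropping the intensity trend ended the call (adjusted p = 0.0618), and the probe set passed under the other 16 alternatives. On 1432543_a_at the signals were 229.3, 228.1 and 229.9 with BMP4, against 238, 213.2 and 160.2 without it. The BMP4 arrays lay inside the control range there, and the log2 change of 0.17 had a 95% interval from -0.10 to 0.45 (adjusted p = 0.45). The third probe set, 1456030_at, was at 1.9 to 13.5 on all arrays and was not tested.

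**Figure D2:**
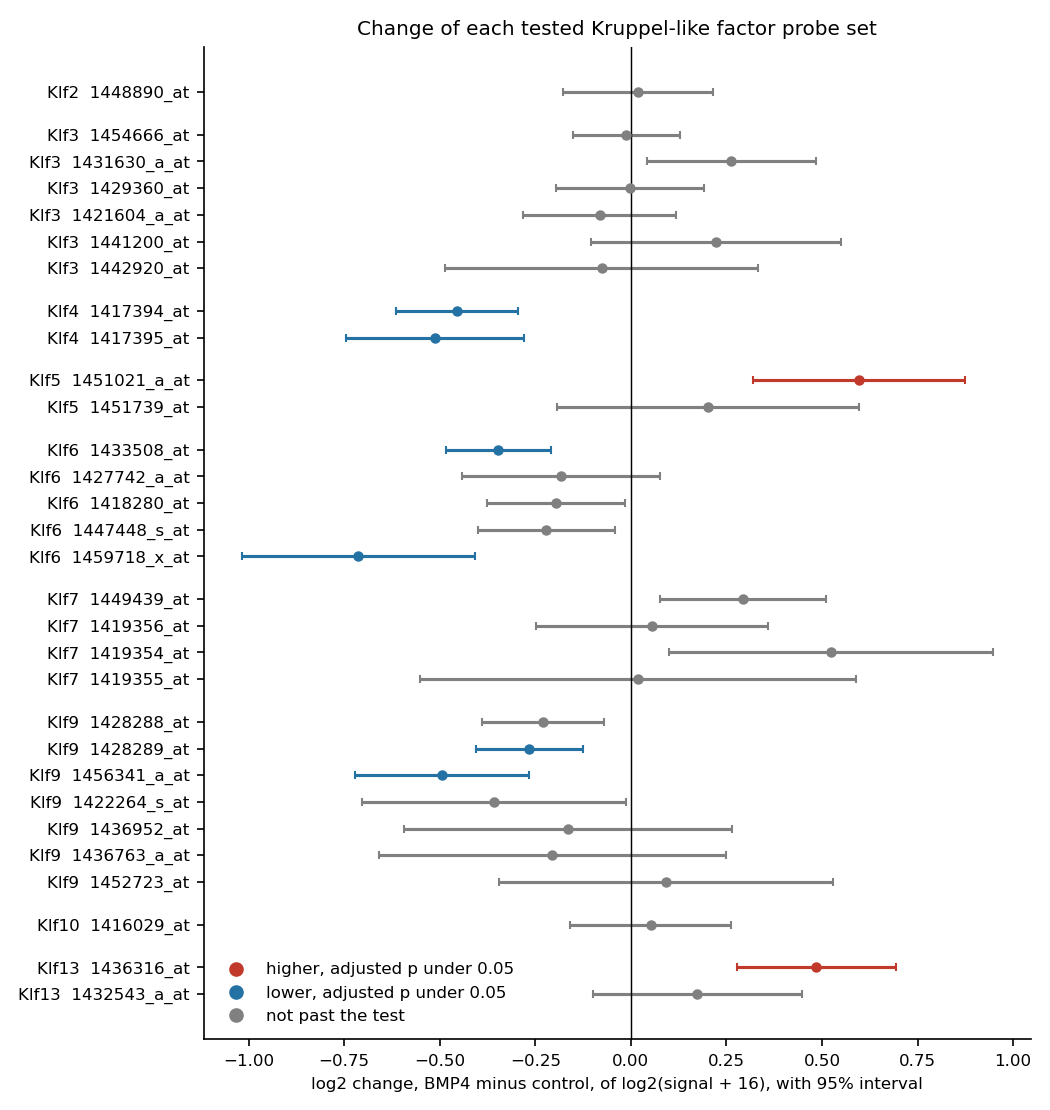
Log2 change, BMP4 minus control, of log2(signal + 16) for the 30 tested probe sets, grouped by gene and ordered by brightness within a gene, with 95% intervals from limma. Red and blue mark an adjusted p under 0.05, on the higher and the lower side. Both Klf4 probe sets and all 5 of Klf6 lie left of 0, those of Klf5, Klf7 and Klf13 lie right of it, and the 6 of Klf3 lie on both sides.

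Klf2, Klf3 and Klf7, which restrain fat cell formation, did not pass the test. Klf2, a factor of quiescent endothelium and T cells that represses Pparg in preadipocytes, had 654, 774.4 and 710.8 with BMP4, against 713.5, 771.2 and 628.6 without it. The groups overlapped fully, and the log2 change of 0.02 had a 95% interval from -0.18 to 0.22 (limma adjusted p = 0.93). Klf3, a repressor that works through the corepressor CtBP, had 1636.5, 1583.5 and 1547.6 on its brightest probe set with BMP4, against 1599.2, 1629.2 and 1577.6 without it. Its interval was narrow, from -0.15 to 0.13 around a log2 change of -0.01 (adjusted p = 0.939). The other 5 tested Klf3 probe sets gave -0.08 to 0.26, on both sides of 0, with adjusted p from 0.147 to 0.992. The seventh, 1458487_at, was too dim to be tested, with 37.3, 29.9 and 23.5 with BMP4, against 9.7, 12.8 and 15.8 without it. Its groups did not overlap, and every control array was under the bacterial control level.

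Klf7, known for axon growth and for restraining adipogenesis in human preadipocytes, had a positive change on all 4 probe sets. On 1449439_at it had 228.5, 206.2 and 217 with BMP4, against 161.9, 166.3 and 196.3 without it. The groups did not overlap, but the log2 change of 0.29 ± 0.10 (SE) missed the threshold (limma adjusted p = 0.0984), and it missed it under all 17 alternatives (0.0597 to 0.294). On 1419354_at the signals were 82.9, 90 and 123.9 with BMP4, against 86.2, 53.3 and 53.7 without it. Here control replicate 1 lay within the BMP4 range, and the log2 change of 0.52 was also not past the test (adjusted p = 0.13). The other 2 probe sets gave 0.06 and 0.02.

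Klf10, described first as an early gene induced by TGF-beta, had 216.1, 254.5 and 234 with BMP4, against 249.3, 214.5 and 214.2 without it. The ranges coincided, and the log2 change of 0.05 had a 95% interval from -0.16 to 0.26 (limma adjusted p = 0.799). Klf15, which activates the glucose transporter gene Slc2a4 in fat and muscle and rises late in adipogenesis, had signals of 3.5, 5.8 and 5.2 with BMP4, against 4.3, 5.4 and 4.9 without it. All 6 values were under the bacterial control level of 29.1, so no change could be measured.

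Over the brightest tested probe sets of the 9 genes, the coefficient of variation between arrays was 1.01% to 18.2% with BMP4 and 1.62% to 12.6% without it. Klf4 had the lowest and Klf5 the highest value with BMP4, and Klf3 the lowest and Klf13 the highest without it. Settings of the processing moved the adjusted p of the 8 called probe sets more than their direction, which was the same under every alternative.

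**Figure D3:**
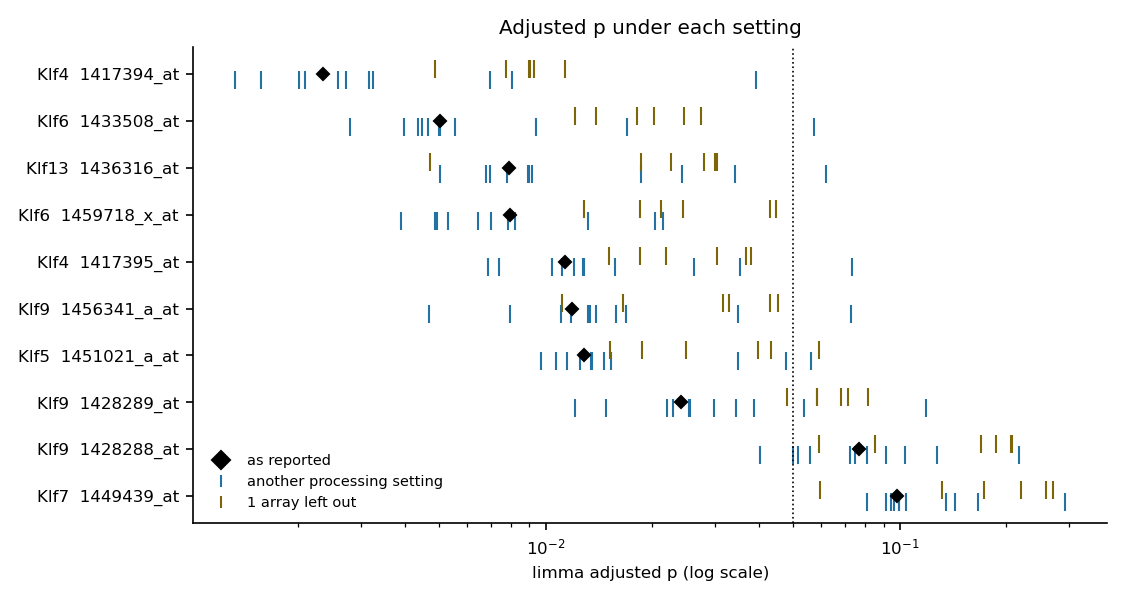
Limma adjusted p (horizontal log axis) of the 8 called probe sets and of the brightest probe sets of Klf9 and Klf7. Diamonds are the values as reported, blue ticks are other processing settings, brown ticks leave out 1 array, and the dotted line is 0.05. Klf4 1417394_at and Klf6 1459718_x_at stay left of the line under every setting, while Klf9 1428289_at crosses it under 7 of 17.

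Other Kruppel-like and Sp factors, which bind the same boxes, showed no call among those bright enough to be tested. Of 10 tested relatives 0 rose and 0 fell (limma, with 1 higher and 1 lower at an unadjusted p under 0.05), and their median log2 change was 0.00, against 0.03 for all genes. Of all genes 5.03% were higher and 5.66% lower. The smallest p belonged to Sp1, a ubiquitous activator at GC boxes, with signals of 1287.1, 1358.1 and 1282.1 with BMP4, against 1388.3, 1616.3 and 1554.7 without it. Its groups were apart, and its log2 change was -0.21 ± 0.07 (SE, limma adjusted p = 0.114). It passed with quantile normalization (adjusted p = 0.0415), with cyclic loess (0.0272) and without control replicate 1 (0.0408). Sp4, Sp5 and Sp8 were too dim to be tested. Sp4 had 34.9, 51.6 and 32.3 with BMP4, against 7.3, 18.4 and 6.8 without it, with no overlap. Its control signals were all under the bacterial control level, and Sp5 and Sp8 were under it on every array.

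Corepressors, coactivators and ubiquitin ligases that act on Kruppel-like factors likewise gave 0 higher and 0 lower of 13 tested genes (limma, with 1 higher and 3 lower at an unadjusted p under 0.05). Their median log2 change was -0.04, and the shares of all genes that passed were 5.03% higher and 5.66% lower. Sin3a, the scaffold of a histone deacetylase complex bound by Klf9, Klf10 and Klf13, had the smallest p, and its log2 change was -0.28 ± 0.08 (SE, limma adjusted p = 0.0629). It passed with a filter at the 60th percentile, with median centring, with array weights and without control replicate 1, at adjusted p from 0.0348 to 0.0468. Its 2 other probe sets gave 0.13 and -0.10.

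Among adipogenic factors and genes that act with Kruppel-like factors, 5 of 14 tested rose and 1 fell (limma, with 5 higher and 5 lower at an unadjusted p under 0.05), with a median log2 change of 0.08. The shares over all genes were 5.03% higher and 5.66% lower. Like the members, this list was chosen with earlier results of these data known. Pparg, the master regulator of fat cells on which Klf5 and Klf9 act, had 318, 305 and 343.6 with BMP4, against 205.1, 189.6 and 181.1 without it, and rose by 0.70 ± 0.09 (SE, limma adjusted p = 0.000402). Cebpa, its partner, had 280.8, 322.2 and 364.8, against 144.9, 139.8 and 169.1 (log2 change 1.01, adjusted p = 0.000188). Dlk1, the preadipocyte gene that Klf6 represses, had 499.9, 544.4 and 634.1, against 271.7, 204.7 and 198.8 (1.26, adjusted p = 7.88e-05). In all 3 genes every BMP4 array was above every control array. The fatty acid carrier Fabp4 rose by 1.97 on its brightest probe set (limma adjusted p = 7.2e-07) and by 2.15 on another (4.27e-05). A dimmer Fabp4 probe set gave 0.58 and did not pass (adjusted p = 0.0733). The signal transducer Stat5a, named after its value was seen, rose by 0.36 (limma adjusted p = 0.00657), and Creb1, a cyclic AMP-responsive factor likewise named later, fell by 0.30 (adjusted p = 0.0372). Stat5b moved the other way from Stat5a, by -0.32, and Egr2 and Cebpd gave -0.41 and -0.25. None of these passed (adjusted p = 0.0759 to 0.0923). The number of lower genes in this list ranged from 0 to 4 over the alternatives, and it was 0 when BMP4 replicate 1, or BMP4 replicate 3, or control replicate 3 was left out, without the filter and without the intensity trend. Cebpb, the early factor downstream of Klf4, and Slc2a4, a Klf15 target in fat, were also picked out with their values known. Cebpb had a log2 change of -0.28 (adjusted p = 0.0744). Slc2a4 had 68.3, 22.3 and 37.1 with BMP4, against 48.1, 21.6 and 16.8 without it, and its interval from -0.33 to 1.07 held both directions.

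Glucocorticoid-induced genes, a class that includes Klf9 and Klf15, were listed together with the gene of the glucocorticoid receptor itself, Nr3c1. Of 11 tested genes of this list, 5 were lower and 0 higher (limma, with 8 lower and 1 higher at an unadjusted p under 0.05). Nr3c1 is among the 8. The median log2 change of the list was -0.41, against 0.03 for all genes. Over all genes 5.66% were lower and 5.03% higher. The list was chosen with earlier results of these data known, so the difference from these shares was not tested. Sult1a1, a sulfotransferase, had 160.4, 145.9 and 125.7 with BMP4, against 365.2, 338.3 and 341.3 without it, which is a fall of the log2 value by 1.19 ± 0.10 (SE, limma adjusted p = 2.63e-05). Dusp1, a phosphatase that switches off MAP kinases, had 558.7, 728.2 and 550.1, against 1415.8, 1207 and 1047.1 (-0.98, adjusted p = 0.000523). Errfi1, a feedback inhibitor of the EGF receptor, fell by 0.88 on its brightest probe set and by 0.96 on another. All BMP4 arrays were below all control arrays for these 3 genes. The zinc finger factor Zbtb16 fell by 0.72 (adjusted p = 0.0318), while a dimmer probe set had a change in the opposite direction, +0.22, that did not pass (adjusted p = 0.616). That call was lost without BMP4 replicate 2 or 3, without control replicate 1 or 3, without the filter and without the intensity trend (adjusted p = 0.0807 to 0.115). The fifth gene, the chaperone Fkbp5, had 173.7, 179.8 and 163.7 with BMP4, against 230.5, 237.5 and 239.1 without it (log2 change -0.42, adjusted p = 0.00999); it was picked out once its value was known. The glucocorticoid receptor gene Nr3c1, likewise picked later, had a log2 change of -0.25 (adjusted p = 0.0581). The rest of the tested list, also named with values known, went both ways. Mt1, Per1 and Sgk1 gave 0.25, 0.08 and 0.05, and Mt2 and Tsc22d3 gave -0.41 and -0.20. None of these passed (adjusted p = 0.0704 to 0.876). With each array centred on its median, 8 genes of this list were lower.

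**Figure D4:**
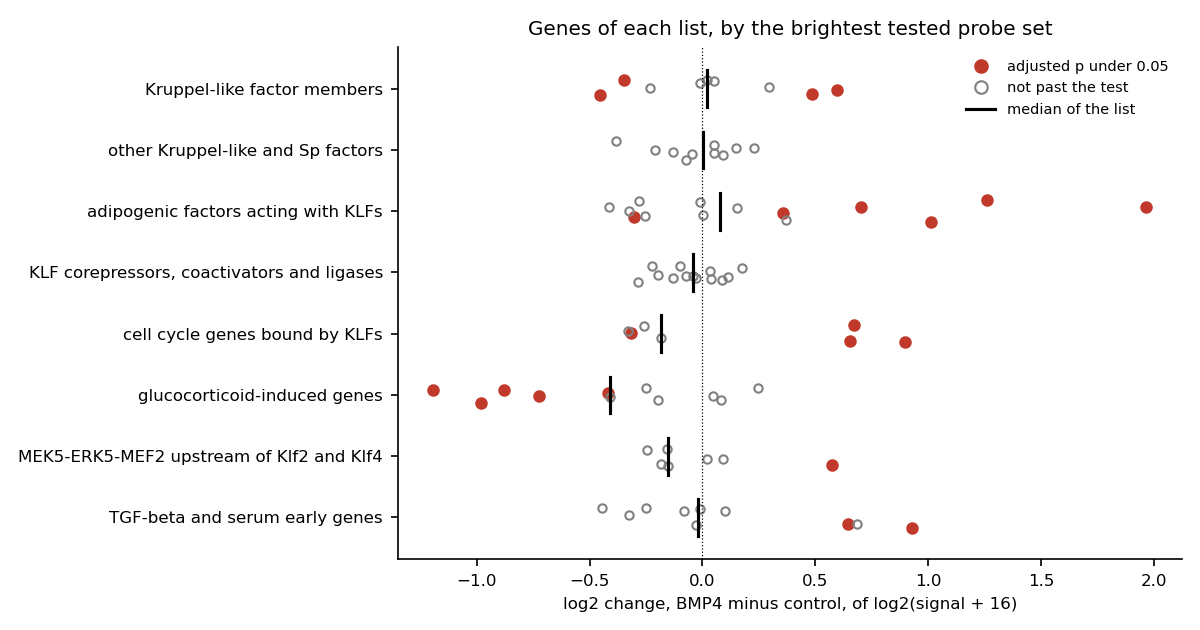
Log2 change, BMP4 minus control (horizontal axis), of each tested gene by its brightest probe set, for the Kruppel-like factors and 7 lists of related genes. Filled points passed at an adjusted p under 0.05, open points did not, and vertical bars are list medians. The Kruppel-like factors have calls on both sides within 0.60 of 0, the 13 cofactors have no call, and the calls of the glucocorticoid list all lie on the lower side.

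The arrays shared a trimmed mean but not a median, and the cells carried mesenchymal markers. The 2% trimmed mean signal was 150 on every array. Scaling makes this value equal, so it does not compare the arrays. Median signals were 37.6 to 42.6 on the BMP4 arrays and 35.2 to 37.3 on the control arrays, without overlap. With each array centred on its median, 25.1% of all called probe sets were higher, against 46.1% as deposited, and the Kruppel-like factors then had 2 higher and 7 lower probe sets. All 10 mesenchymal markers were above the bacterial control level on every array, with summed signals of 48278 to 56045 with BMP4 and 43783 to 53231 without it; among them Pdgfra and Lum fell, and Postn rose (log2 change 0.29, limma adjusted p = 0.0463), a call lost under 11 alternatives, among them leaving out any 1 array. Klf2 and Klf4 are also endothelial factors, and the 8 endothelial markers summed to 183.6 to 355.2 with BMP4 and 251.1 to 320.1 without it. Pecam1 and Tie1 were at or under the bacterial control level on all arrays. Tek fell by 0.69 (limma adjusted p = 0.0167), a call lost when BMP4 replicate 3, or control replicate 1, or control replicate 3 was left out. The 7 epithelial markers, of interest because Klf4 and Klf5 are epithelial factors, summed to 373.1 to 607.9 with BMP4 and 478.5 to 575 without it. Epcam and Krt8 were above the bacterial control level on every array, and Cdh1, Esrp1 and Krt18 on none. Epcam made up most of the sum, with 197.2, 371.7 and 428.3 with BMP4, against 413.3, 392.6 and 335.8 without it (log2 change -0.25, limma adjusted p = 0.543). Its probe set has the suffix _x_at and may also pick up transcripts of other genes, so these signals are uncertain as a measure of Epcam. The 8 macrophage markers summed to 473.2 to 624 with BMP4 and 443.3 to 476.8 without it. Cd14, Csf1r, Cd68 and Adgre1 were above that level on every array, and Ptprc, Itgam and Tyrobp on none. Lyz2 had 58.8, 52 and 49.7 with BMP4, against 30, 40 and 17.5 without it, with no overlap, and its log2 change of 0.65 did not pass (limma adjusted p = 0.0853). The part of these cell types in the Kruppel-like factor changes was not tested.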

How the data were processed

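Total RNA of 6 samples of the mouse line C3H10T1/2, 3 given 50 ng/ml BMP4 and 3 without it, was measured on 1-colour arrays of biotin-labelled RNA. Groups and replicate numbers come from the sample titles, which do not say whether replicates were separate cultures, so the spread behind each p-value may be technical. Per the submitters' processing notes GCOS 1.3 was used, and the authors deposited signal intensities on a linear scale. The sources used here do not give its scaling and background settings. The 2% trimmed mean is 150 on all arrays, and no further scaling was applied. Such scaling takes total signal as equal between the groups. The table has no detection calls, so the highest signal of the 27 Bacillus subtilis control probe sets, 29.1, served as the background level. Precision is limited by having 3 arrays a group.

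Of 45101 probe sets, 34958 had 1 gene symbol, 932 several and 9211 none in the platform annotation. By gene ID, 34754 were found in the RefSeq gene table of GRCm38.p6, with 0 symbols renamed. After removal of 64 control probe sets, values were analysed as log2(signal + 16). Probe sets with a mean log2 value above the 40th percentile, a signal of 23.5, were kept, 27022 in all. The groups were compared in R 4.3.3 by limma 3.58.1 (lmFit and two-sided eBayes, its variance prior following intensity), p-values were adjusted over all of them by Benjamini-Hochberg, and the threshold was 0.05. This log scale understates the change of dim genes. The fit was tested on simulated data first. A gene was represented by its kept single-symbol probe set with the highest mean.

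Members and gene lists were chosen with earlier results of these data known. All 34 probe sets of the members were described. From each other list up to 4 called genes by size of change, or, in a list with no call, the gene of smallest p, were named, and further genes are marked in the text. Same-numbered samples did not deviate together: the correlations of their deviations from the group means were 0.0102, -0.00261 and -0.0725, so the numbers were not taken as pairs. Alternatives were other pseudocounts, filters, normalizations and variance models, array weights, a replicate block, and leaving out each array.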

Additional observations from a re-analysis of the deposited data

How the results depend on the processing

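Over 17 alternatives, the 30 tested Kruppel-like factor probe sets gave 505 repeat values, of which 490 kept their side of the threshold, 13 lost a call and 2 gained one. No called probe set changed direction. Without the intensity trend, 0 Kruppel-like factor probe sets were called higher and 2 lower, and 0 genes were higher and 1 lower. Leaving out 1 array gave 1 to 2 higher probe sets and 1 to 2 higher genes, the 1 being without control replicate 1; 5 to 6 probe sets were lower. Counting a gene by any of its probe sets gave 3 lower genes. With the replicate block 2 probe sets were higher and 5 lower, and the call of Klf9 1428289_at was lost (adjusted p = 0.0537); no other Kruppel-like factor call changed. Over all probe sets, 1136 were higher and 1328 lower. These counts became 632 and 1890 with median centring, which shifted the median change by -0.09, and 659 and 763 without the trend. They were 811 and 845 without control replicate 1, and 768 and 854 without control replicate 2. Of 374 repeat counts of the other lists, 62 moved by over 1.5 times or to or from 0; the cause was not tested. Signals near or under 29.1 limit what can be said of Klf15 and the dim probe sets of Klf3, Klf5, Klf9 and Klf13.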

Other observations

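Cell cycle genes known as Kruppel-like factor targets moved in both directions. Of 7 tested, 3 rose and 1 fell (limma, with 3 higher and 3 lower at an unadjusted p under 0.05), against 5.03% higher and 5.66% lower of all genes. The list was chosen with earlier results of these data known. Cdkn1a, the inhibitor that Klf4 and Klf6 activate in other cells, had 1560.3, 1739.5 and 1760 with BMP4, against 963.3, 1167.9 and 1069 without it, a log2 change of 0.66 (limma adjusted p = 0.000565), while a dimmer probe set gave 0.34 (adjusted p = 0.11). The mitotic kinase Cdk1 rose by 0.90 and the cyclin Ccne1 by 0.67 (adjusted p = 0.0136). The Ccne1 call was lost without BMP4 replicate 2 or 3 or control replicate 3. It came from a probe set with the suffix _x_at, which may also pick up transcripts of other genes. A dimmer Ccne1 probe set gave 0.48 and did not pass (adjusted p = 0.0965). Ccnd1, the cyclin of early G1, had 1316.8, 1562.9 and 1620.8, against 1826.3, 1848.9 and 1914.2 (-0.32, adjusted p = 0.04), and its call was lost when any 1 array except BMP4 replicate 3 was left out, without the filter and without the intensity trend. Its 2 other probe sets gave -0.28 (adjusted p = 0.0716) and -0.16 (adjusted p = 0.283).

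In the MEK5 to MEF2 route that induces Klf2 and Klf4, 1 of 7 tested genes rose and 0 fell (limma, with 1 higher and 1 lower at an unadjusted p under 0.05). The shares over all genes were 5.03% higher and 5.66% lower. Mef2c gave 0.57 (adjusted p = 0.0454), a call lost under 9 of 17 alternatives, among them leaving out any 1 array except BMP4 replicate 1 (adjusted p = 0.0702 to 0.144). Its 4 other probe sets gave 0.36 to 0.75.

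Of 10 tested TGF-beta and serum early genes, 2 rose and 0 fell (limma, with 3 higher and 2 lower at an unadjusted p under 0.05). Over all genes 5.03% were higher and 5.66% lower. The 2 that rose were the ligands Tgfb2 (0.93, limma adjusted p = 1.76e-05) and Tgfb1 (0.65, adjusted p = 0.045). The Tgfb1 signal was near the bacterial control level, with 45, 51.9 and 49.3 with BMP4, against 30.1, 20.7 and 25.7 without it, and its call was lost under 11 of 16 alternatives: leaving out any 1 array, the replicate block, quantile normalization, median centring, cyclic loess and no filter (adjusted p = 0.0664 to 0.153).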
